A study of Mus musculus with 4 samples.

Results

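Alveolar type II (AT2) cells with a high share of Sftpc transcripts and no Cldn4 transcript were compared between Cdc42 AT2 null and control mice on day 21 after pneumonectomy (PNX), the surgical removal of part of the lung. The study sequenced 4 libraries of sorted AT2 cells, control and null, each sham treated or on day 21 after PNX, and asked how alveolar regeneration depends on Cdc42. All mice carried the tamoxifen-inducible driver Sftpc-CreER and the Rosa26-mTmG reporter. At Cdc42, controls had 1 floxed beside 1 normal allele (Cdc42flox/+), and null mice had 1 floxed beside 1 null allele (Cdc42flox/-). Mice of all groups received 4 doses of tamoxifen, and all are labelled postnatal day 80, with no word on whether surgery or collection fell on that day. Tamoxifen activates CreER in cells that express Sftpc, so the allele is deleted and the reporter turned to GFP in AT2 cells, and GFP+ cells were sorted. Control cells thus also went through Cre activity, with loss of 1 Cdc42 copy. Each group was 1 library, made from a number of mice that no source used here gives, and no difference below has a replicate check.

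The cells were chosen by measured values. A cell was kept with at least 500 detected genes, at most 20% mitochondrial transcripts, at least 2% of its unique molecular identifiers (UMIs, one per captured transcript) from Sftpc, and 0 UMIs of Cldn4, Ptprc, Pecam1, Col1a2, Mki67 and Top2a. Each cell was then thinned at random to 2500 UMIs, so that cells of unequal depth carried the same number. This left 748 of 2370 null PNX cells (31.6%) and 1776 of 2252 control PNX cells (78.9%), 2524 of the 10077 cells in the series. The same rule kept 2290 null sham and 1468 control sham cells, which are given beside the PNX values. Levels of the 7 genes named in the rule were fixed by the choice and are described only, as are gene levels in general, since the rule read the same cells.

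AT2 cells make and store pulmonary surfactant in lamellar bodies, and they are the stem cells of the alveolus. After injury or loss of lung tissue they divide, and some flatten into the thin alveolar type I (AT1) cells of the gas-exchange surface by way of a transitional state that carries simple keratins, Cldn4, Sfn and Clu. Cdc42 is a small GTPase that switches between GTP- and GDP-bound forms and controls actin filaments, cell polarity and cell shape. Cldn4, which encodes a tight-junction claudin, was used here to set transitional cells apart.

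The Cldn4 criterion removed 625 of the 1488 null PNX cells with enough Sftpc (42.0%), 3 of 1965 control PNX cells (0.153%), 52 of 2669 null sham cells and 0 of 1698 control sham cells. It read the counts before thinning, and the parts of depth and free RNA in these numbers were not tested. At the edge of the Sftpc criterion, the null PNX cells nearest to it had 2.01% just inside and 1.998% just outside, and the control PNX cells had 2.21% and 1.91%. Between 1% and 2% Sftpc lay 98 null PNX and 9 control PNX cells. Kept null PNX cells had a median Sftpc share of 8.39% and control PNX cells 12.7%, with 6.78% in null sham and 13.1% in control sham. Raw depth differed, with a median of 9743 UMIs in kept null PNX cells and 5029.5 in control PNX cells, and 0 and 122 cells were left out as too shallow for thinning. After thinning, the median cell still showed 1094 genes in null PNX and 995 in control PNX (2638 and 1616 unthinned). The summed cells held 1870000 and 4440000 UMIs, where 3 counts are worth 1.60 and 0.676 counts per 1000000 UMIs (CPM). The libraries shared 8 cell barcodes, 3 of them among kept cells.

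All 12 AT2 markers had at least 20 CPM in both libraries, so the cells carried the AT2 label. The transitional label was less clear cut: a summed 5779 CPM of 12 transitional markers remained in null PNX cells without Cldn4, against 893 CPM in control PNX, and the cells are therefore called Cldn4-negative here rather than non-transitional. Markers of other cells were low, with 33.7 CPM over 6 macrophage markers in null PNX and 11.3 in control PNX, 40.1 and 23.6 over 6 lymphocyte markers, 144 and 49.1 over 4 neutrophil markers, 31.6 and 17.6 over 4 endothelial markers, and 8.02 and 1.58 over 4 fibroblast markers. Col1a2 and Pecam1 among them were at 0 by the rule. Club cell markers summed to 1926 CPM in null PNX and 979 in control PNX and ciliated markers to 139 and 252. Each of these sums except the ciliated one was higher in null PNX, and their part in the results below was not tested. Free RNA from broken cells can also enter droplets. Lymphocytes of the same libraries, which do not express alveolar keratins, served as the background: 81.5% of 81 null PNX lymphocytes had a UMI of Krt7, Krt8, Krt18 or Krt19, against 3.23% of 31 control PNX lymphocytes, each cell at 2500 UMIs. The kept AT2 cells had 99.1% and 61.0%. The lymphocyte groups differed in makeup: neutrophil markers summed to 52767 CPM in the 39 control PNX cells, beside 2298 CPM of lymphocyte markers, and to 113 and 2062 CPM in the 81 null PNX cells. The name lymphocytes thus stands for the rule that chose these cells, not for a pure cell type. Their level of a gene can include their own transcripts, so it measures free RNA only for genes that they do not express.

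A gene was described when it had at least 20 CPM in either library, which 5456 genes did. The ratio of null PNX over control PNX had a median of 1.17 over these genes (0.22 on the log2 scale). A gene was counted as higher when its ratio was at least 2.34, that is 2 times the median, and its exact 95% interval lay above the median, and as lower when its ratio was at most 0.584 with the interval below the median. Intervals come from the binomial distribution of the 2 counts and cover counting error only. With 1 library a side, no p-value can be given. By this rule null PNX had 324 higher genes (5.94%) and 466 lower genes (8.54%), so 41.0% of the counted genes were on the higher side. Without centring on the median the split turned to 569 higher and 284 lower (66.7% higher), it was 58.8% higher when Sftpc and mitochondrial UMIs were left out of the total and 51.1% when ribosomal protein UMIs were, and 50.7% when genes were not filtered by level. The counts of list members given below stand beside these shares of all described genes under the main rule, 5.94% higher and 8.54% lower. Values below are relative to the median unless a ratio of CPM is named, pairs of levels joined by "against" give the null library first, and other pairs give control PNX and then null PNX. Uncentred list medians lie 0.22 higher, which takes those of 6 lists above 0: Cdc42 effectors, junctions, YAP/TAZ targets, cholesterol, unfolded protein response and interferon-stimulated genes. Of the described genes, 1209 reached 20 CPM in 1 library alone, which applied to 187 of the higher and 209 of the lower genes. Such genes were described only through the library in which they were high, so list counts and medians that rest on them are description only. Genes just inside the limit were Anks1 and Cela1 at 20.04 CPM, and Zfp24 and Zfp740 lay just outside at 19.8 CPM. Without PNX, the same rule in null sham over control sham gave 130 higher (2.62%) and 119 lower (2.39%) of 4970 genes.

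**Figure D1:**
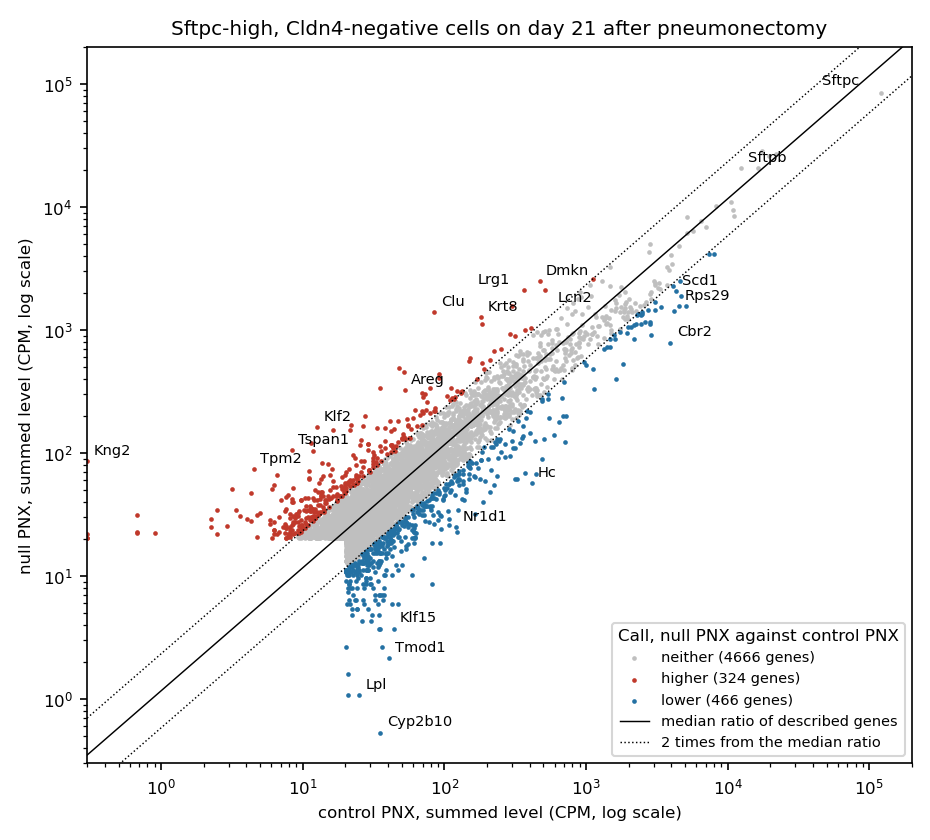
Summed level of each of the 5456 described genes in control PNX (x axis) and null PNX (y axis) cells without Cldn4, in CPM on log axes; the solid line is the median ratio and the dotted lines lie 2 times from it. The 324 higher genes include Clu, Kng2 and Krt8, and the 466 lower genes include Cyp2b10, Cbr2 and Nr1d1.

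Cdc42 itself (GRCm38, minus strand, chr4:137319696-137357720) had 312 CPM in null PNX against 215 in control PNX, and 263 against 171 after sham treatment. Its ratio was 1.45 (95% interval 1.30–1.61) with PNX and 1.53 (1.40–1.69) without, so the targeted gene was not lower in either null library and was counted as neither higher nor lower. The 3′ tags counted here need not come from the floxed part, which the labels do not describe, so these values do not check the deletion. In lymphocytes, which do not express Sftpc, Cdc42 had 462 CPM in control PNX and 786 in null PNX.

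Genes of the transitional epithelial state were the group that stood highest in null PNX cells. Of 28 listed genes 19 were described, 14 were higher and 0 lower, beside 5.94% and 8.54% of all described genes, and the median log2 ratio was 1.86 above the median of all genes. Without PNX 10 were higher and 1 lower of 18 described, with a median of 1.37. Krt8, a keratin of simple epithelia, had 1282 CPM in null PNX against 182 in control PNX, and 735 against 129 after sham treatment. Both null libraries were thus above both control libraries, with a PNX ratio of 7.03 (6.49–7.62). Its partner Krt18 had 185 CPM in control PNX and 1112 in null PNX, a ratio of 6.01 (5.54–6.53). Krt19 had 47.5 and 489 CPM, a ratio of 10.3 (8.85–12.0), and Krt7 79.1 and 336 CPM, a ratio of 4.25 (3.73–4.86).

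Clu (plus strand, chr14:65968483-65981547), which encodes the secreted chaperone clusterin, showed the largest ratio among the listed transitional genes. It had 1397 CPM in null PNX against 84.9 in control PNX, and 161 against 63.5 after sham treatment, so null PNX stood apart from the other 3 libraries. Its ratio was 16.4 (14.8–18.4) with PNX and 2.54 (2.20–2.94) without. A Clu UMI was found in 88.8% of null PNX cells and 16.6% of control PNX cells, and in 59.3% of null PNX and 0% of 31 control PNX lymphocytes (exact upper limit 11.2%, for the number of cells only). Sfn, a 14-3-3 protein of stressed epithelium, had 35.1 CPM in control PNX and 336 in null PNX, a ratio of 9.56 (8.01–11.5). In null PNX lymphocytes Sfn reached 363 CPM, which is above its level in the AT2 cells of that library. Anxa1, a membrane-binding annexin, had 52.0 and 455 CPM, a ratio of 8.75 (7.55–10.2), with 352 CPM in null PNX lymphocytes. The lectin Lgals3 and the calcium-binding S100a6, with ratios of 3.76 (3.41–4.15) and 5.23 (4.90–5.59), were higher in null PNX lymphocytes than in the AT2 cells, at 1617 and 3806 CPM against 562 and 1558.

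Ligands of the EGF receptor were among these genes. Areg had 325 CPM in null PNX against 52.3 in control PNX, and 63.4 against 45.8 after sham treatment, high in null PNX alone. Its PNX ratio was 6.22 (5.34–7.27), and null PNX lymphocytes held 76.1 CPM. Hbegf had 59.4 CPM against 16.4 with PNX and 12.6 against 10.4 after sham treatment, with a PNX ratio of 3.61 (2.66–4.92) and 36.6 CPM in null PNX lymphocytes. Tnfrsf12a, the receptor for the cytokine TWEAK, had a ratio of 4.54 (3.60–5.75).

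Counts of transitional genes were higher across most null PNX cells rather than a few. Summed over 19 transitional genes other than Cldn4, the median cell had 23 UMIs of 2500 in null PNX, against 5 in control PNX, and 11 against 5 after sham treatment. The highest 10% of control PNX cells began at 12 UMIs, and 89.4% of null PNX cells lay above that value, against 42.7% of null sham and 4.63% of control sham cells. Each share describes the cells of 1 library, and cells are not replicates of a group. Null PNX lymphocytes had a median of 15 UMIs of these genes, also above 12, and control PNX lymphocytes 4. The share of cells above 12 UMIs therefore cannot tell expression in the cells from free RNA. The part of free RNA in these counts was not tested. The lymphocyte level of each library, which can include transcripts of those cells themselves, was subtracted. Krt8 then remained at 716 CPM in null PNX and 162 in control PNX. In the same order, Clu remained at 873 and 84.9 CPM and Krt18 at 559.6 and 178.0. Other transitional genes kept less of the difference, with Krt19 at 63.4 and 47.5 CPM and Krt7 at 147.6 and 72.2. Sfn, at -27.6 and 35.1 CPM, and Anxa2, at 131.5 and 292.8, were then lower in null PNX. Of the 748 null PNX cells 28 also lacked any UMI of Krt19, Sfn and Sprr1a, against 1252 of the 1776 control PNX cells. This choice read the counts before thinning, where kept null PNX cells were deeper (median 9743 UMIs against 5029.5). The parts of depth and free RNA in the 2 numbers of cells were not tested. In the cells without Krt19, Sfn and Sprr1a the transitional median was 1.24, with a log2 ratio of 1.80 for Krt8 and 3.37 for Clu relative to the median. The 28 null PNX cells hold few UMIs, so values given for them here and below are coarse for genes of low level.

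**Figure D2:**
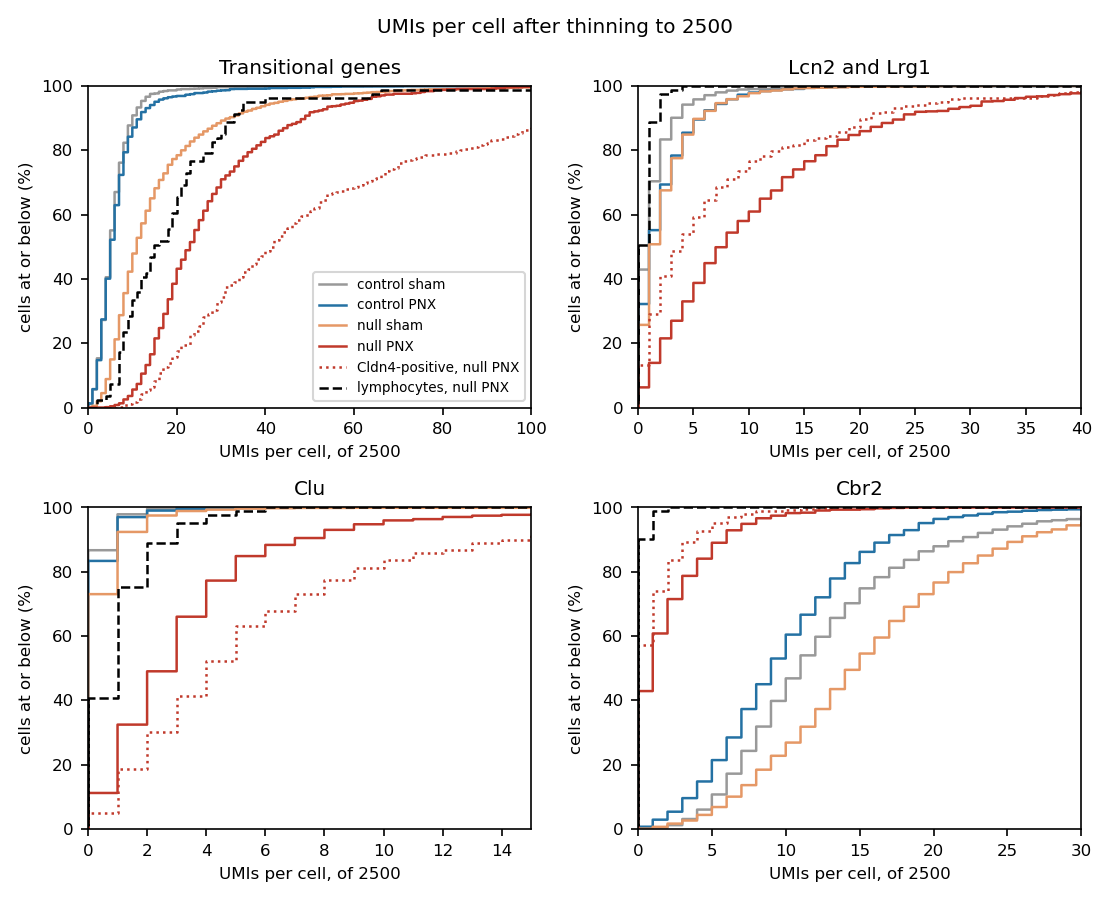
Cumulative share of cells (y axis, %) at or below a number of UMIs per cell (x axis, cells thinned to 2500 UMIs) for the transitional genes, Lcn2 with Lrg1, Clu and Cbr2, by library; the dotted line shows null PNX cells with Cldn4 and the dashed line null PNX lymphocytes. For the transitional genes the median moves from 5 UMIs in control PNX to 23 in null PNX, and for Cbr2 from 9 to 1.

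The 492 null PNX cells that met the rule but held Cldn4 were the nearest group. Their median count of transitional genes was 41.5 UMIs, above the 23 of the Cldn4-negative cells. Krt8 was 2.07 times (1.97–2.19) as high in them, at 2660 CPM, and Anxa1 2.69 times (2.47–2.93), at 1223 CPM. F3, which encodes tissue factor and starts the clotting cascade, was 5.00 times (3.88–6.52) as high, at 211 CPM against 42.2. Lcn2 and Lrg1 went the other way, at 1559 and 1500 CPM in Cldn4-positive cells against 2133 and 2100 CPM in Cldn4-negative cells, ratios of 0.731 (0.692–0.772) and 0.714 (0.675–0.755). These comparisons are within 1 library, so they too have no replicate. Cldn4 was read before thinning, and the parts of depth and free RNA in which cells held it were not tested.

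Of 13 described genes for secreted host-defence proteins 4 were higher and 1 lower, beside 5.94% and 8.54% of all described genes. The list's median was 0.19. Lcn2, which encodes lipocalin 2 and withholds iron from bacteria, had 2133 CPM in null PNX against 515 in control PNX, and 624 against 357 after sham treatment. Its ratio was 4.14 (3.93–4.36) with PNX and 1.75 (1.64–1.87) without. Lrg1, a secreted leucine-rich glycoprotein of the acute phase, had 2100 CPM against 364 with PNX and 314 against 192 after sham treatment, with a PNX ratio of 5.77 (5.44–6.11). Both were high in null PNX alone. Lymphocytes of null PNX held 127 CPM of Lcn2 and 135 of Lrg1, a small part of the AT2 level. The 39 control PNX lymphocytes held 883 CPM of Lcn2, beside a neutrophil marker sum of 52767 CPM. The complement component C3 had 33.1 and 84.5 CPM, a ratio of 2.55 (2.03–3.22), and Pglyrp1, a peptidoglycan recognition protein, 75.2 and 259 CPM, a ratio of 3.44 (2.99–3.97).

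Chia1, an acidic chitinase that AT2 cells secrete, was lower in both null libraries. It had 140 CPM in null PNX against 594 in control PNX, and 177 against 497 after sham treatment, 4.26-fold lower with PNX. Within null PNX, cells with more keratin UMIs had fewer of Lcn2 and Lrg1, with a Spearman correlation of -0.28 over 748 cells, against -0.08 over 1776 control PNX cells. Clu went with the keratins weakly (0.23 in null PNX and 0.09 in control PNX). Scd1 ran opposite to them in each library (-0.39 in null PNX and -0.20 in control PNX). These cells share 1 library and a fixed total of UMIs, and the values are a description.

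**Figure D3:**
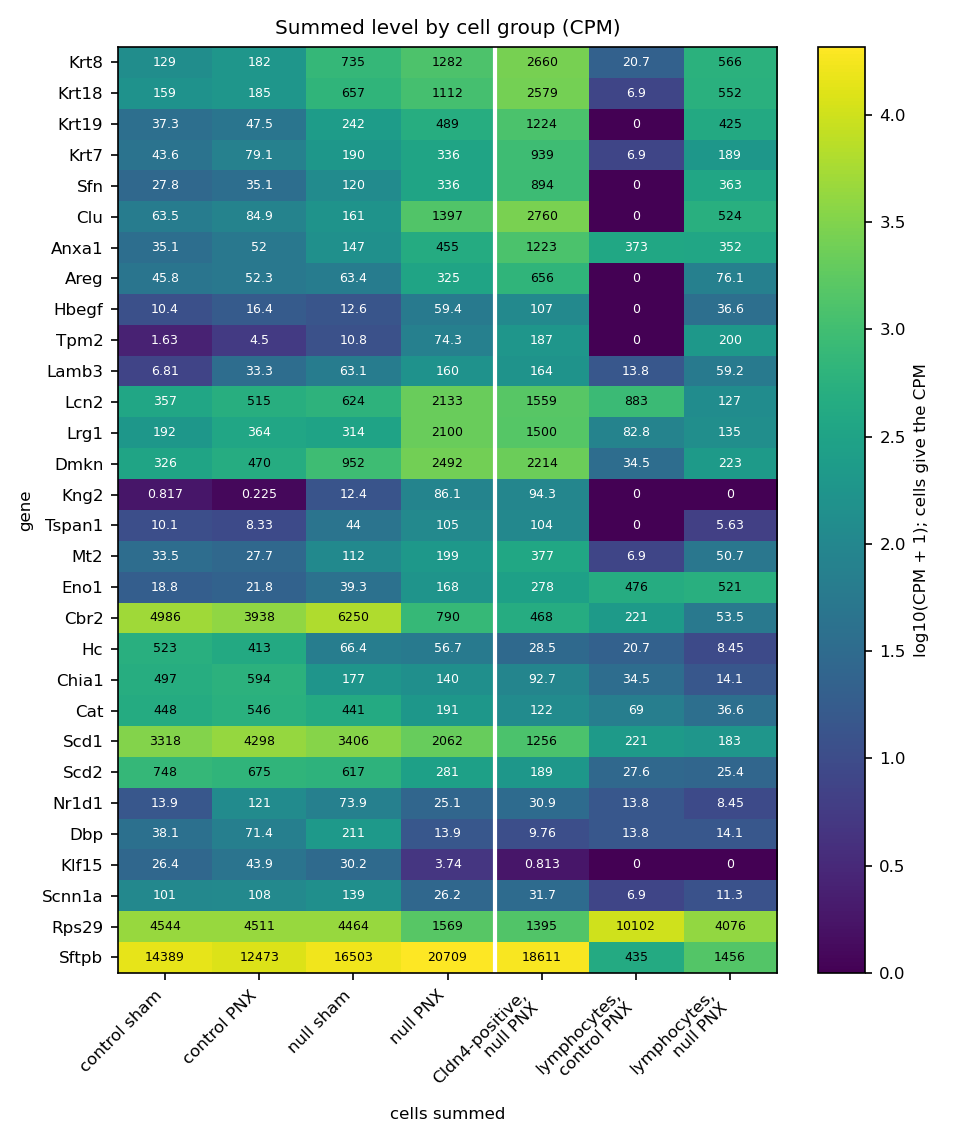
Summed level in CPM (colour on a log10 scale, value in each box) of 30 genes in Cldn4-negative cells of the 4 libraries, in Cldn4-positive null PNX cells and in lymphocytes of both PNX libraries. Lcn2, Lrg1 and Dmkn are highest in the null PNX column, the keratins are higher in the Cldn4-positive column, and Kng2 is at 0 in both lymphocyte columns.

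Other secreted and membrane proteins of epithelia were also higher. Dmkn, which encodes dermokine, a secreted protein of stratified epithelium, had 2492 CPM in null PNX against 470 in control PNX, and 952 against 326 after sham treatment. The order was the same as for Krt8, with a PNX ratio of 5.31 (5.04–5.59) and 223 CPM in null PNX lymphocytes. Kng2, a kininogen precursor of bradykinin, had 86.1 CPM in null PNX against 0.225 in control PNX (1 UMI), and 12.4 against 0.817 after sham treatment. Its ratio of 382 has an interval of 67.6 to 15191, and it was seen in 16.2% of null PNX cells and in 0 UMIs of null PNX lymphocytes, where 3 counts are worth 8.45 CPM. Tspan1, a tetraspanin, had 8.33 CPM in control PNX and 105 in null PNX, a ratio of 12.6 (8.86–18.5). Rgs4, a regulator of G protein signalling, was at 0 UMIs in the other 3 libraries and at 20.3 CPM in null PNX, at least 30.1-fold higher against 3 counts over the control PNX cells, with 10.5% of its UMIs in 1 cell. Of 11 described chemokines and cytokines, 3 were higher and 1 lower, and all 3 higher genes reached 20 CPM in null PNX alone. Cxcl2, which attracts neutrophils, had 3.15 and 50.8 CPM, and Il1b 2.48 and 34.2 CPM, but 23.2% and 17.2% of their null PNX UMIs lay in 1 cell and null PNX lymphocytes held 287 and 84.5 CPM.

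Surfactant genes did not move as a block. Of 16 described genes 1 was higher and 3 lower, with a median of -0.54. Sftpc, which the rule used, had 84284 CPM in null PNX against 120240 in control PNX, and 68650 against 126450 after sham treatment. Sftpb, whose product is needed for the surfactant film, had 20709 CPM against 12473 with PNX and 16503 against 14389 after sham treatment, a PNX ratio of 1.66 (1.64–1.68) that stayed below the limit. Napsa, the aspartic protease that processes surfactant proteins B and C, had 2624 CPM against 1111 with PNX and 1558 against 1184 after sham treatment, and its ratio of 2.36 (2.27–2.46) was just past the limit. Slc34a2, the phosphate transporter of the AT2 surface, had 4611 CPM in control PNX and 2499 in null PNX and was 1.84-fold lower. Lgi3, a secreted leucine-rich protein, had 403 and 216 CPM and was 1.86-fold lower.

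AT2 identity genes and regulators had 0 higher and 5 lower of 21 described and a median of -0.29. Hc, which encodes complement component 5, had 56.7 CPM in null PNX against 413 in control PNX, and 66.4 against 523 after sham treatment. The 2 genotypes did not overlap in it: it was 7.29-fold lower with PNX, and the ratio without PNX was 0.127 (0.113–0.142). The transcription factors Foxa1 and Foxa2 had 74.5 and 118 CPM in control PNX and 36.9 and 64.2 in null PNX. Etv5, an effector of FGF signalling that maintains AT2 cells, had 383 and 219 CPM and was 1.75-fold lower. The lineage regulators Nkx2-1 and Cebpa were counted as neither, with ratios of 0.976 (0.887–1.07) and 0.957 (0.868–1.05). Fabp5, a fatty acid carrier, had 1969 and 1062 CPM.

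AT1 genes did not form a common direction, with 2 higher and 3 lower of 16 described and a median of -0.45. Ager, an abundant receptor of AT1 cells, had 1254 CPM in null PNX against 1447 in control PNX, and 515 against 1290 after sham treatment. Its ratio was 0.866 (0.826–0.909) with PNX and 0.399 (0.381–0.418) without. Hopx, a regulator of AT1 cells, had 36.3 CPM in control PNX and 15.5 in null PNX, and Col4a4, a type IV collagen chain, 34.0 and 9.09 CPM, 3.74-fold lower. The 2 higher genes were Krt7, above, and S100a14, with 26.8 and 166 CPM.

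Carbonyl reductase 2 gave one of the clearest differences of single cells. Cbr2 (minus strand, chr11:120729489-120732114) had 790 CPM in null PNX against 3938 in control PNX, and 6250 against 4986 after sham treatment, so null PNX alone was low. It was 4.99-fold lower with PNX, and the ratio without PNX was 1.25 (1.23–1.28). The median null PNX cell had 1 UMI of 2500, against 9 in control PNX and 15 in null sham, and 57.1% of null PNX cells had any UMI against 99.3% of control PNX cells. Among lymphocytes the shares were 9.88% in null PNX and 41.9% in control PNX, also lower in null PNX. S100g, a calcium-binding protein of AT2 cells, had 4143 CPM in control PNX and 1436 in null PNX and was 2.89-fold lower. The club cell secretoglobin Scgb1a1 had 917 and 1857 CPM, but 17.9% of its null PNX UMIs lay in 1 cell.

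Genes of lipid supply were lower in null PNX where they were counted at all. AT2 cells make the saturated phospholipid of surfactant from fatty acids, and sterol-controlled genes bring in and make cholesterol. Of 17 described fatty acid genes 0 were higher and 7 lower (median -0.55), of 19 cholesterol genes 0 and 4 (median -0.22), and of 20 phospholipid and lipid transport genes 0 and 5 (median -0.27). Without centring, these medians were -0.33, 0.0015 and -0.05. Scd1, the stearoyl-CoA desaturase, had 2062 CPM in null PNX against 4298 in control PNX, and 3406 against 3318 after sham treatment and was 2.08-fold lower. Its relative Scd2 had 675 CPM in control PNX and 281 in null PNX, 2.40-fold lower.

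Idi1, an enzyme of the isoprenoid steps, had 134 CPM in control PNX and 58.8 in null PNX. Insig1, which holds back sterol synthesis, had 147 and 82.9 CPM, so both a synthesis gene and its brake were lower. Lpl, lipoprotein lipase, had 1.07 CPM in null PNX (2 UMIs) against 25 in control PNX, and 10.1 against 46.6 after sham treatment, a PNX ratio of 0.0428 (0.00512–0.158). The apolipoproteins Apoe and Apoc1 were lower in both null libraries, with PNX ratios of 0.257 (0.224–0.293) and 0.278 (0.248–0.312) and ratios without PNX of 0.267 (0.251–0.285) and 0.333 (0.312–0.355).

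Glycolysis genes had 6 higher and 1 lower of 16 described in null PNX and a median of 0.72. Eno1, an enolase, had 21.8 CPM in control PNX and 168 in null PNX, a ratio of 7.69 (6.10–9.75). Gapdh had 937 CPM in null PNX against 291 in control PNX, and 485 against 247 after sham treatment, higher in each null library than in its control, with a PNX ratio of 3.21 (2.99–3.46). Ldha, which reduces pyruvate to lactate, had 317 and 897 CPM, a ratio of 2.83 (2.64–3.04). The hexokinases parted: Hk1 had 13.5 and 48.7 CPM, and Hk2 95.3 and 24.1 CPM, 3.96-fold lower. With the lymphocyte level subtracted, Hk1 lay at -41.7 and -4.86 CPM and Hk2 at 60.8 and -4.11 CPM. Lymphocytes of null PNX held 521 CPM of Eno1, 918 of Gapdh and 831 of Ldha, above the AT2 level for Eno1 (521 against 168) and close to it for Gapdh and Ldha. In the 28 cells without Krt19, Sfn and Sprr1a the glycolysis median was 0.33.

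Antioxidant genes showed 8 higher and 2 lower of 30 described, with a median of 0.32. The metallothioneins, which bind zinc and copper, were among the higher ones. Mt2 had 199 CPM in null PNX against 27.7 in control PNX, and 112 against 33.5 after sham treatment, a PNX ratio of 7.18 (5.84–8.88), and Mt1 had a ratio of 3.03 (2.79–3.30). Mgst3, a microsomal glutathione transferase, had 70.0 CPM in control PNX and 284 in null PNX, and Gpx2, a glutathione peroxidase, 35.1 and 113 CPM. Cat, which encodes catalase, was lower, at 546 and 191 CPM, 2.85-fold. Nuclear-encoded genes of oxidative phosphorylation lay at the median of all genes (0.01), with 2 higher and 1 lower of 31.

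Mitochondrially encoded genes had 0 higher and 5 lower of 12 described and a median of -0.52. The lowest ratios were those of mt-Nd3 (1137 CPM in control PNX and 329 in null PNX) and mt-Atp8 (138 and 41.2 CPM). The summed level was nearly equal, with a ratio of 0.978 (0.971–0.985). Among cells of 2500 to 8000 raw UMIs, which brings the libraries closer in depth, the list's median turned to 0.09, so its direction depended on which cells were used.

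Actin and actomyosin genes had 5 higher and 0 lower of 27 described and a median of 0.73, with 8 higher and a median of 0.71 without PNX. Tpm2, a tropomyosin, which wraps actin filaments, had 74.3 CPM in null PNX against 4.50 in control PNX, and 10.8 against 1.63 after sham treatment, a PNX ratio of 16.5 (10.3–27.9), but null PNX lymphocytes held 200 CPM. Capg, which caps filament ends, had 42.1 CPM in control PNX and 150 in null PNX, a ratio of 3.57 (2.95–4.32). The tropomyosins Tpm4 and Tpm3 had 123 and 134 CPM in control PNX and 318 and 317 in null PNX. Arpc1b, a subunit of the Arp2/3 complex, had 189 and 481 CPM, but did not pass the limit in cells of 2500 to 8000 raw UMIs. In null PNX lymphocytes Capg, Tpm3 and Arpc1b were above the AT2 level, at 704, 603 and 1085 CPM. Actb and Actg1, the cytoplasmic actins, were counted as neither, with ratios of 1.55 (1.51–1.60) and 2.21 (2.13–2.29). In the 28 cells without Krt19, Sfn and Sprr1a the actin median was 0.03, so the list stood at the median of all genes there.

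Effectors of Cdc42 and related small GTPases had 1 higher and 2 lower of 21, beside 5.94% and 8.54% of all described genes, and a median of -0.06. Rhou, an atypical GTPase close to Cdc42, had 12.8 CPM in control PNX and 38.0 in null PNX, a ratio of 2.96 (2.06–4.27). The polarity proteins Pard3 and Prkci, which act with Cdc42 at the apical membrane, had 59.9 and 55.4 CPM in control PNX and 34.8 and 29.9 in null PNX. In cells of 2500 to 8000 raw UMIs neither passed the limit, at log2 values of -0.57 for Pard3 and -0.69 for Prkci. Of 18 junction genes 1 was higher and 1 lower (median -0.11): Epcam, an epithelial adhesion molecule, had a ratio of 2.35 (2.12–2.61), and Tjp1, a tight-junction scaffold, had 41.2 and 21.9 CPM.

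Matrix and integrin genes went both ways, with 4 higher and 3 lower of 18 and a median of 0.13. Lamb3, a chain of the laminin under epithelia, had 160 CPM in null PNX against 33.3 in control PNX, and 63.1 against 6.81 after sham treatment. Each of genotype and surgery went with a higher value, and the PNX ratio was 4.81 (3.94–5.90). Itga6, an integrin chain that binds laminin, had 12.2 CPM in control PNX and 49.7 in null PNX, and Timp2, a metalloproteinase inhibitor, 41.2 and 181. With the lymphocyte level subtracted, Timp2 was left at 13.6 CPM in control PNX and 9.44 in null PNX, and Lamb3 at 19.5 and 101. Npnt, a matrix ligand of the lung epithelium, was lower, at 77.9 and 27.3 CPM. Spp1, osteopontin, had 0.225 CPM in control PNX (1 UMI) and 21.9 in null PNX, a ratio of 97.3 with an interval of 16.5 to 3938, and 586 CPM in null PNX lymphocytes, which is above the AT2 level.

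Of 12 described TGF-β genes 2 were higher and 0 lower (median 0.36), and of 11 YAP/TAZ targets 3 were higher and 4 lower (median -0.05). YAP and TAZ are co-activators that respond to tension and act through TEAD factors. Cyr61, a matricellular target, had 8.56 CPM in control PNX and 40.1 in null PNX, a ratio of 4.69 (3.13–7.12), while Amotl2 and Tead1 had 47.7 and 40.1 CPM in control PNX and 20.9 and 18.2 in null PNX. Ctgf, another target, was below 20 CPM in every library. Tgfb1 had 21.2 and 40.1 CPM, a ratio of 1.89 (1.38–2.59), counted as neither. Thbs1, which activates latent TGF-β, had 33.3 and 90.9 CPM, and Pmepa1, a feedback target, 21.2 and 74.9 CPM. With the lymphocyte level of each library subtracted, Thbs1 was left at 26.4 and 59.9 CPM and Pmepa1 at 0.470 and 1.62 CPM. The YAP/TAZ median was -1.03 in the 28 cells without Krt19, Sfn and Sprr1a and 0.20 in cells of 2500 to 8000 raw UMIs. Thbs1 and Pmepa1 lay on the other side of the median in the 28 cells without Krt19, Sfn and Sprr1a, at -0.04 and -0.47.

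Ion and fluid transport had 3 higher and 8 lower of 19, with a median of -0.48. All 3 higher genes reached 20 CPM in null PNX alone. The epithelial sodium channel draws fluid out of the alveolus. Its subunit Scnn1a had 26.2 CPM in null PNX against 108 in control PNX, and 139 against 101 after sham treatment, low in null PNX alone and 4.12-fold lower, and Scnn1b had 25 CPM in control PNX and 10.7 in null PNX. The potassium channel genes Kcnj15 and Kcne2 had 213 and 90.3 CPM in control PNX and 72.7 and 28.3 in null PNX. The FXYD proteins, small regulators of the sodium pump, were higher: Fxyd2 had 16 and 74.9 CPM with PNX and 15.3 and 154 without, ratios of 4.68 (3.49–6.32) and 10.1 (7.72–13.5), whose difference was not tested.

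In FGF, ERK and EGF signalling 2 genes were higher, the ligands Areg and Hbegf above, and 4 lower of 13, with a median of -0.39. The lower genes were the receptor Fgfr2, at 183 CPM in control PNX and 102 in null PNX, its effector Etv5, and the feedback inhibitors Spry1, at 126 and 60.4, and Spry2, at 124 and 61.0. Of 10 Wnt and Notch genes 0 were higher and 5 lower, with a median of -0.88. Of these 10, 4 reached 20 CPM in 1 library alone, and the other 6 had a median of -0.42. The Wnt receptor Fzd5 and the Wnt feedback gene Nkd1 had 30.4 and 191 CPM in control PNX and 12.8 and 111 in null PNX. The Notch ligand Jag1 and target Hes1 had 34.5 and 135 CPM in control PNX and 13.4 and 72.7 in null PNX. Of 7 BMP genes Bmp4 was the 1 lower, at 156 and 82.4 CPM, and the median was -0.63.

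Circadian clock genes stood lowest of all lists under the main rule, with 0 higher and 7 lower of 10 described and a median of -1.52. Of the 10, 6 reached 20 CPM in 1 library alone, and the 4 that did so in both had a median of -0.83. With no filter on level the clock median was -0.62, and the list of ribosomal proteins stood lower, at -0.68. In the clock, BMAL1 and CLOCK drive the Per, Cry and Nr1d genes and the output factors Dbp and Tef through E-boxes, and the products feed back on the drivers over a day. Nr1d1, a repressor of this loop, had 25.1 CPM in null PNX against 121 in control PNX, and 73.9 against 13.9 after sham treatment. Control PNX and null sham were high and the other libraries low, so the null over control ratio was 0.207 (0.151–0.280) with PNX and 5.32 (3.97–7.26) without. Dbp had 13.9 CPM against 71.4 with PNX and 211 against 38.1 after sham treatment, with ratios of 0.195 (0.125–0.291) and 5.53 (4.64–6.64). Tef had 6.95 CPM against 36.0 with PNX and 70.2 against 31.1 after sham treatment, with ratios of 0.193 (0.101–0.339) and 2.26 (1.83–2.81). Nr1d2 had ratios of 0.312 (0.207–0.455) and 3.18 (2.50–4.10), Per3 of 0.444 (0.288–0.664) and 2.41 (1.94–3.01), and Cry2 of 0.363 (0.226–0.560) and 1.17 (0.912–1.51). Without PNX 5 of 11 clock genes were higher and 1 lower, with a median of 0.99. Arntl, which encodes BMAL1 and was picked after its values were seen, ran against Nr1d1 at low levels, with 11.8 CPM in null PNX against 4.73 in control PNX, and 0.524 against 17.7 after sham treatment. No source used here gives the hour of collection, and hour and group cannot be told apart with 1 library each. In the 28 cells without Krt19, Sfn and Sprr1a the clock median was -0.45.

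The promoters of 2 lower clock genes are shown because they hold motifs of the clock's own factors. The windows are the 250 bases before a RefSeq transcript start (build GRCm38.p6), written 5′ to 3′ on the gene's strand with the motif in capitals. Per3, on the minus strand at chr4:151044666-151044915, has 2 D-boxes (TTANGTAA, the site of DBP and TEF), and Tef, on the plus strand at chr15:81811164-81811413, has 1 E-box (CACGTG). Neither window overlaps an annotated exon.
Per3: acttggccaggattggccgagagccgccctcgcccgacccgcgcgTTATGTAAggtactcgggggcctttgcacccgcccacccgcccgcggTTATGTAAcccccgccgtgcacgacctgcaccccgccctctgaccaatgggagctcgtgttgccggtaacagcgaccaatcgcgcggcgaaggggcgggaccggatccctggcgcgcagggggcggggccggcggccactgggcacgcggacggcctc
Tef: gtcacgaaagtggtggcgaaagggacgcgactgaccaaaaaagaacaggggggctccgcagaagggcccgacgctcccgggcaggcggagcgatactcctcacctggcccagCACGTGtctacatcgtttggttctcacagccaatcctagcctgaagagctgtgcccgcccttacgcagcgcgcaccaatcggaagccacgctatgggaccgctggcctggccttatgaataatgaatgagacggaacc
Both motifs were searched on both strands. Of the 7 lower clock genes 1 had an E-box, against 10.9% of 4250 described genes with a window and 6.86% of all 27025 genes. A D-box was in 1 of the 7, against 1.74% of described and 2.44% of all genes. Tef has another window with an E-box, which overlaps an annotated exon and is not shown. The AP-1 motif (TGANTCA) was in 1 of 11 higher transitional genes with a window (Anxa2), against 5.27% of described and 7.82% of all genes. The STAT motif (TTCCNGGAA) was in 0 of 4 higher host-defence genes, against 1.08% and 1.09%. The heat-shock element was in 1 of 4 lower heat-shock genes (Hspe1), against 0.424% of described genes. The antioxidant element core was in 1 of 7 higher antioxidant genes (Mt2), against 14.4%. The sterol element was in 0 of 2 lower cholesterol genes, against 1.2%, and the TEAD motif in 0 of 2 higher YAP/TAZ targets, against 12.8%. A match describes these letters and is no evidence of a bound site.

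**Figure D4:**
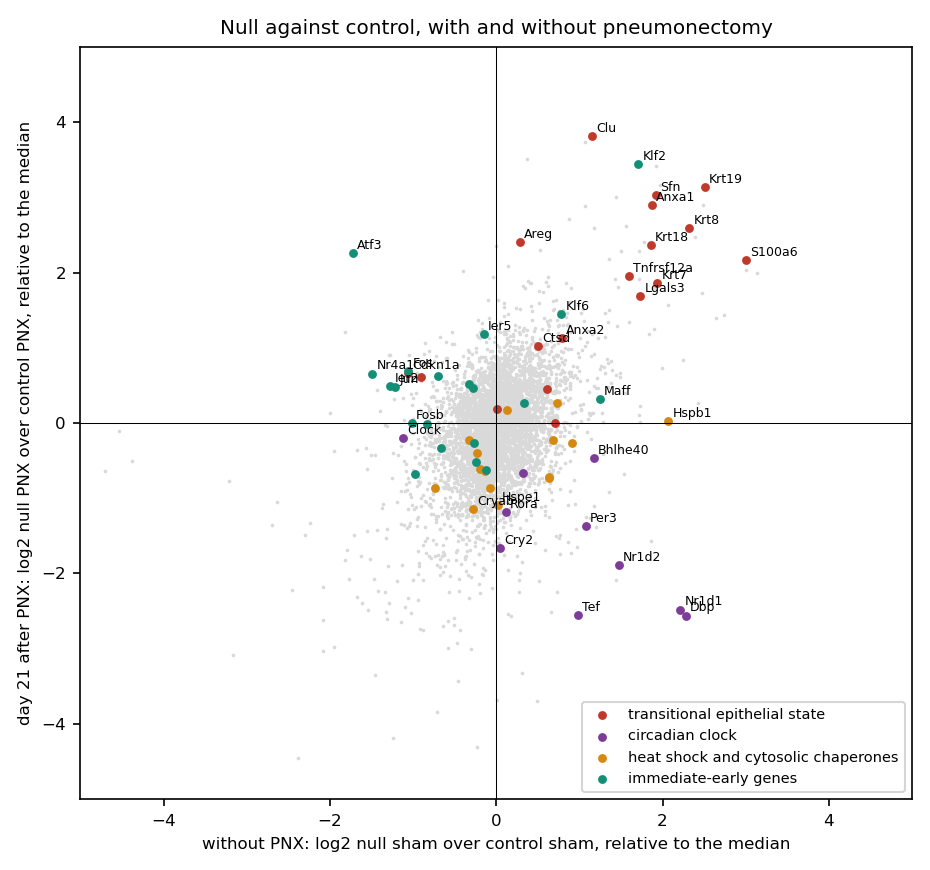
Log2 ratio of null over control relative to the median of described genes, without PNX (x axis) and on day 21 after PNX (y axis), for genes described in both comparisons (grey) and members of 4 lists (colours); the 2 comparisons share no library. Most transitional genes lie at the upper right, with 10 higher and 1 lower of 18 without PNX. The clock genes Nr1d1, Dbp, Nr1d2, Tef and Per3 lie at the lower right, higher without PNX and lower with it.

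Glucocorticoid-induced genes had 2 higher, the metallothioneins, and 3 lower of 10, with a median of -0.57. Klf15, a metabolic transcription factor that glucocorticoids induce, had 3.74 CPM in null PNX against 43.9 in control PNX, and 30.2 against 26.4 after sham treatment, low in null PNX alone and 11.7-fold lower. Sult1a1, a sulfotransferase, had 37.2 CPM in control PNX and 8.02 in null PNX. With no filter on level, which adds low genes, the list's median was 0.12, on the other side.

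Immediate-early genes, which respond within minutes to stimuli and to cell dissociation, had 4 higher and 0 lower of 20 with PNX and a median of 0.47, and 2 higher and 6 lower of 21 without PNX. Klf2, a zinc-finger factor, had 162 CPM in null PNX against 12.6 in control PNX, and 75.5 against 20.2 after sham treatment, a PNX ratio of 12.8 (9.60–17.4), with 583 CPM in null PNX lymphocytes. Atf3 had 62.0 CPM against 11 with PNX and 12.4 against 36.2 after sham treatment, with ratios of 5.62 (3.99–8.02) with PNX and 0.342 (0.253–0.460) without, but 26.7% of its null PNX UMIs lay in 1 cell. Fos and Jun were counted as neither, with ratios of 1.88 (1.68–2.11) and 1.63 (1.47–1.80). In the 28 cells without Krt19, Sfn and Sprr1a the median of the list was -0.36.

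Heat-shock genes and cytosolic chaperones went the other way, with 0 higher and 5 lower of 18 and a median of -0.68. Hspa1b, an inducible HSP70, had 5.88 CPM in null PNX against 34.0 in control PNX, and 2.27 against 4.63 after sham treatment, so control PNX alone was high. Hsph1 had 5.88 CPM against 27.3 with PNX and 9.43 against 3.27 after sham treatment, with control PNX again highest, and Chordc1 15.5 CPM against 34.9 with PNX and 14.5 against 12.5 after sham treatment. Hspa8, the constitutive member, was at 893 and 872 CPM with PNX, counted as neither.

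The counts of further stress and immune lists stand beside 5.94% higher and 8.54% lower of all described genes. Unfolded protein response genes had 0 higher and 2 lower of 21 (median -0.10), p53 targets and cell-cycle inhibitors 0 and 0 of 14 (median 0.31), MHC class I genes 0 and 0 of 13 (median 0.56), MHC class II genes 0 and 0 of 7 (median 0.14) and interferon-stimulated genes 0 and 1 of 8 (median -0.16). H2-D1, an MHC class I heavy chain, had 1291 CPM in control PNX and 2487 in null PNX, a ratio of 1.93 (1.85–2.00). Cd74, the class II invariant chain, had 5143 and 8299 CPM, a ratio of 1.61 (1.58–1.65). Cell cycle genes had 2 higher and 0 lower of 12 (median 0.54), in cells that held no Mki67 or Top2a by the rule. Both higher genes reached 20 CPM in null PNX alone. Cdc20, an activator of mitotic exit, had 2.93 and 25.7 CPM, and Cks2, a subunit of cyclin kinases, 7.88 and 45.5. Null PNX lymphocytes held 33.8 CPM of Cdc20 and 90.1 of Cks2. Lysosome genes had 2 higher and 2 lower of 24 (median 0.43), annexins and S100 proteins 4 and 1 of 16 (median 0.47), coagulation genes 2 and 0 of 5 (median 0.47) and airway secretory genes 1 and 2 of 8 (median -0.41). In the 28 cells without Krt19, Sfn and Sprr1a the medians lay on the other side for coagulation (-0.17), p53 targets (-0.29) and MHC class II (-0.47), and that of annexins and S100 proteins was 0.01.

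Ribosomal protein genes lay below the median almost without exception. Of 82 described genes 0 were higher and 32 lower, 81 lay below the median of all genes, and their summed level was 178217 CPM in control PNX and 109082 in null PNX, a ratio of 0.612 (0.609–0.615). Without PNX the summed ratio was 0.957. Rps27, Rps28 and Rps29 were lowest among those named, at 5077, 2882 and 4511 CPM in control PNX and 1574, 918 and 1569 in null PNX. Lymphocytes of the same libraries showed a summed ratio of 0.727 (0.719–0.736), but the control PNX group among them held the neutrophil transcripts given above, and the source of the difference was not tested. All 9 described ribosomal pseudogenes were lower, with a summed ratio of 0.271 (0.255–0.287), and reads of these copies cannot be told apart with certainty. More widely, of 133 lower genes with at least 20 UMIs in lymphocytes 97 had a lymphocyte ratio below 1 (41 of the 133 were ribosomal protein genes or pseudogenes), and of 171 higher genes 145 had one above 1, against 1908 of all 2782 such genes. These counts rest on the same pair of lymphocyte groups of unequal makeup.

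Among the 15 genes with the largest ratios in each direction, many are known for roles outside the lists. Celf4, an RNA-binding protein, had 0.676 CPM in control PNX (3 UMIs) and 31.6 in null PNX, a ratio of 46.7 (15.2–233), and Bok, a BCL2-family protein, 0.676 and 23 CPM, a ratio of 34.0 (10.9–171). The β-tubulins Tubb2b and Tubb2a had 0.901 and 11.5 CPM in control PNX and 22.5 and 121 in null PNX, with ratios of 24.9 (9.05–95.7) and 10.5 (7.73–14.6). Null PNX lymphocytes held 28.2 CPM of Tubb2b, above the AT2 level, and 67.6 of Tubb2a. The phosphodiesterase Pde1c, the sialyltransferase St8sia6, the lipopolysaccharide co-receptor Cd14 and Fxyd5 complete the higher group with Clu, Kng2, Krt19, Klf2, Spp1, Tpm2 and Tspan1, and null PNX lymphocytes were above the AT2 cells in Fxyd5 (1006 against 25.1 CPM) and Cd14 (90.1 against 47.6 CPM).

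On the lower side Cyp2b10, a drug-metabolising cytochrome P450, came first. It had 0.535 CPM in null PNX (1 UMI) against 35.4 in control PNX, and 58.2 against 18 after sham treatment, a ratio of 0.0151 (0.000380–0.0855) with PNX and 3.23 (2.48–4.28) without. Tmod1, which caps actin filaments, had 40.5 CPM in control PNX and 2.14 in null PNX, 19.0-fold lower, and Dgkg, a diacylglycerol kinase, 36.0 and 2.67. Bex1, Tex11, Pgrmc1, Ppp1r1b, Fam178b, Abca17, Samd1, Tle4 and Cdh16 had between 20.04 and 46.6 CPM in control PNX and between 1.07 and 5.88 in null PNX. Their levels in null PNX rested on 2 to 11 UMIs each.

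By difference in CPM, the 10 genes furthest on the higher side were abundant transcripts, of which only Dmkn passed the limit on the ratio. Malat1, a nuclear non-coding RNA, had 28389 CPM in null PNX against 17544 in control PNX, and 16732 against 19817 after sham treatment. Lyz2, the lysozyme of AT2 cells, had 25840 against 19409 CPM with PNX, a ratio of 1.33 (1.32–1.35). The surfactant proteins Sftpa1 and Sftpd had ratios of 1.25 (1.24–1.26) and 1.75 (1.71–1.80), in contrast to the 0.701 (0.697–0.705) of Sftpc. On the lower side Sftpc was followed by ribosomal protein genes, of which Rpl37a had 1906 against 4716 CPM and Rpl41 4185 against 7941 CPM.

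**Figure D5:**
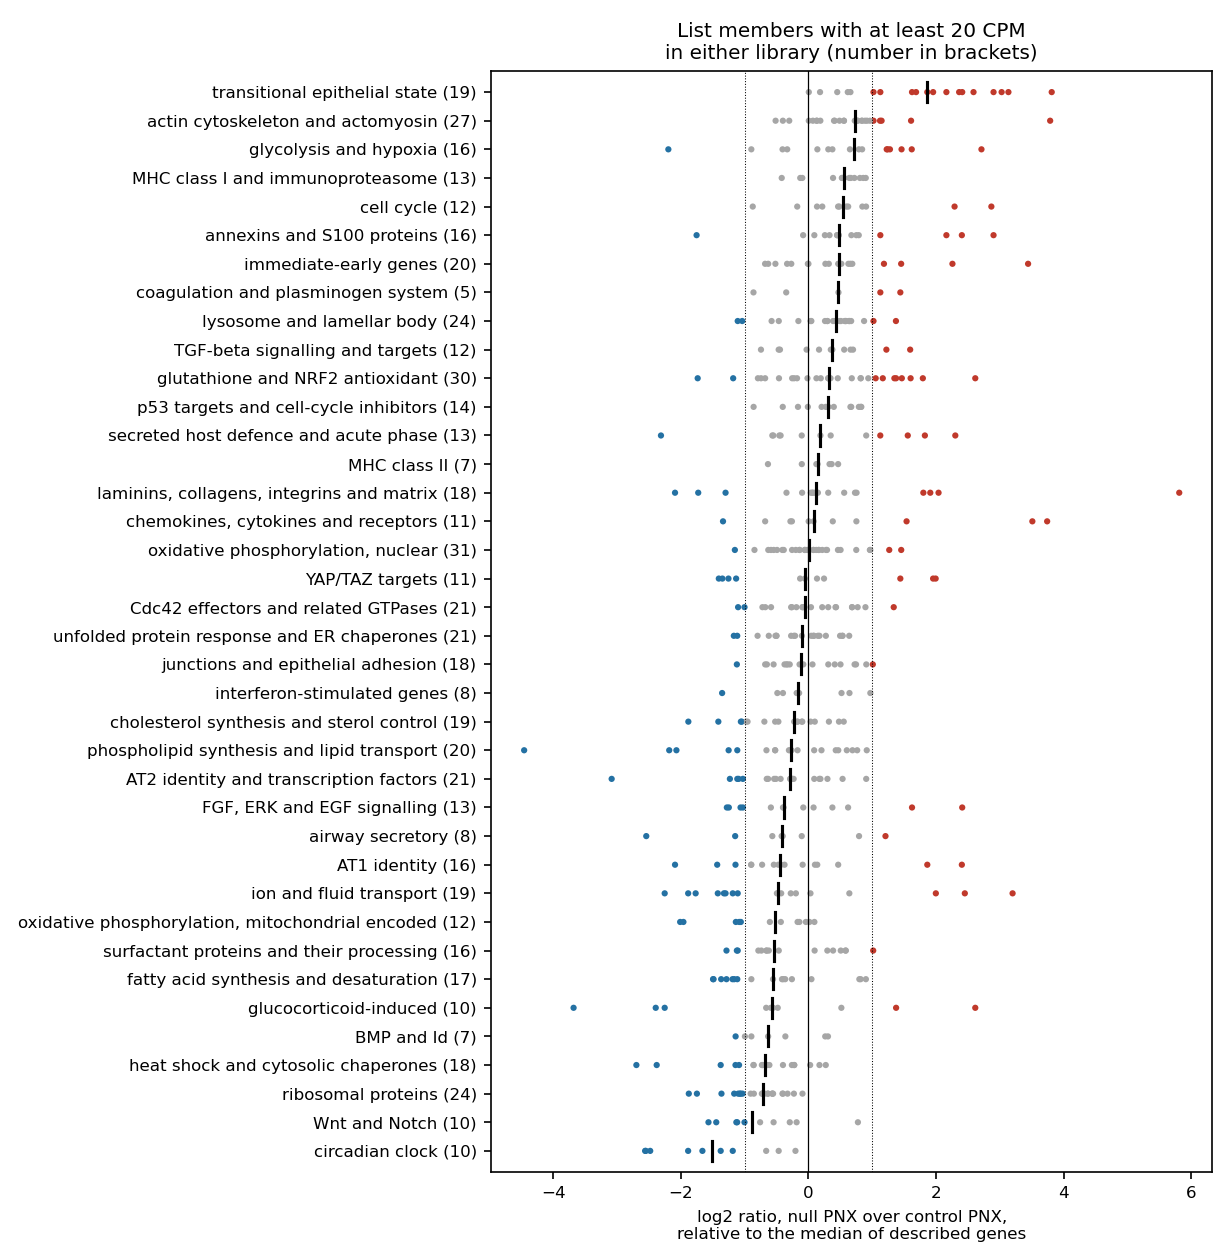
Log2 ratio of null PNX over control PNX relative to the median of described genes (x axis) for described members of the 38 lists (y axis); points are genes, red higher, blue lower and grey neither, bars are list medians, and dotted lines mark 2 times. The transitional list has the highest median, 1.86, and the clock list the lowest, -1.52.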

How the data were processed

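Single-cell RNA-seq (10x Genomics 3′) was made from sorted GFP+ cells, 1 library for each of 4 groups. The authors deposited a table of raw UMI counts for 17117 genes and 10077 cells, in which the ending of a cell's barcode names its library, per the labels. The submitters' processing notes name Cell Ranger 2.1.0, Seurat 2.3.4 and mm10, and no source used here gives the annotation release or a cell filter. The lowest total in the table was 2669 UMIs for a null PNX cell and 1171 for a control PNX cell. No doublet caller was run.

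The cells, gene lists and named genes were chosen with earlier results of these data known. Counts of the kept cells were thinned to 2500 UMIs a cell with a fixed seed, summed per library and scaled to CPM. Each gene's ratio has an exact conditional binomial (Clopper-Pearson) 95% interval, and log2 ratios add 0.5 counts to each side. The 38 lists held 812 genes, of which 806 were in the table and 553 described. The named genes were the 15 highest and 15 lowest ratios, the 10 largest changes in CPM each way, and in each list the called members with the largest ratios and the most UMIs, with genes that have over 10% of their UMIs in 1 cell set apart. Other list members were named after their values were seen. Where a group had 0 counts, 3 counts over its cells were used as the floor. Promoter windows and gene coordinates come from RefSeq and GENCODE on GRCm38.

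Lymphocytes for the background were cells with a UMI of Ptprc and of at least 1 of Cd3e, Cd3g, Cd79a, Cd79b, Ms4a1 and Nkg7, under 2% Sftpc, and none of Cldn4 and Col1a2. Alternatives changed 1 choice at a time: the cell rule, depth, level filter, scaling (edgeR 4.0.16 TMM in R 4.3.3 among them), fold and seed. The method was tested on simulated counts. Python 3.11.15, numpy 2.4.6, scipy 1.17.1 and pandas 2.3.3 were used.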

Additional observations from a re-analysis of the deposited data

Results flagged for a closer look

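For 6 of the genes named by the rule the null over control ratio lay on opposite sides with and without PNX, each counted as higher in one comparison and lower in the other. The difference between the comparisons was not tested, since each library stands alone. The clock genes were lower with PNX and higher without: Nr1d1 had ratios of 0.207 and 5.32, Dbp of 0.195 and 5.53, and Nr1d2 of 0.312 and 3.18. Per3, which the rule did not name, likewise had 0.444 and 2.41. Cyp2b10, a cytochrome P450, had 0.0151 with PNX and 3.23 without. Atf3, a stress-induced factor, had 5.62 with PNX and 0.342 without, and 26.7% of its null PNX UMIs lay in 1 cell. Scgb3a2, a secretoglobin of airway cells, had 2.70 with PNX and 0.321 without, and 31.7% of its null PNX UMIs lay in 1 cell. In cells of 2500 to 8000 raw UMIs Scgb3a2 did not pass the limit, at a log2 value of 0.78 with PNX. Of all genes described, 13 were counted in opposite directions.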

How the results depend on the processing

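No paired analysis was possible because each group is 1 library. For the same reason no replicate could be left out. The main rule gave 324 higher and 466 lower genes, 14 of 38 lists with a median at least 0.5 from that of all genes, and 146 named genes past the limit. Requiring 0 UMIs of Krt19, Sfn and Sprr1a as well, which leaves 28 null PNX cells, gave 209 higher and 288 lower genes, 6 such lists and 62 named genes, and turned the mitochondrially encoded median to 0.0277, Hyou1 to 0.40, Ier5 to -0.33, Pmepa1 to -0.47, Scgb3a2 to -0.55, Thbs1 to -0.039 and Thrsp to 0.50. Against 1252 control PNX cells, these 28 hold few UMIs of genes of low level. The added 0.5 counts weigh more on their side, so such turns are not measured changes of direction. There 75 of 144 named genes that had passed the limit moved by over 1.5 times. Cells of 2500 to 8000 raw UMIs gave 7 such lists and a mitochondrially encoded median of 0.0856, and 15 of 146 named genes moved by over 1.5 times. Of the genes named in the text, Arpc1b, Chordc1, Etv5, Foxa2, Hes1, Hyou1, Insig1, Ldha, Napsa, Pard3, Prkci, Scgb3a2 and Tjp1 no longer lay 2 times from the median there. In the 28 null PNX cells this held for Anxa2, Arpc1b, Bex1, Bmp4, Cdc20, Col4a4, Epcam, Etv5, F3, Fabp5, Foxa1, Foxa2, Fzd5, Gapdh, Hbegf, Hspa1b, Hyou1, Idi1, Ier5, Ldha, Mt1, Napsa, Nr1d2, Pard3, Pmepa1, Prkci, Rhou, Scd1, Scgb3a2, Scnn1a, Slc34a2, Spry2, Thbs1 and Thrsp. The YAP/TAZ list moved to -1.03 in those 28 cells, coagulation to -0.17, p53 targets to -0.29, MHC class II to -0.47, chemokines to -0.33, immediate-early genes to -0.36 and nuclear oxidative phosphorylation to -0.29, while host defence moved to -0.21 in cells of 2500 to 8000 raw UMIs. A minimum of 50 CPM gave 155 higher and 245 lower genes. No minimum gave 928 and 903, with a glucocorticoid median of 0.12. Without centring there were 569 higher and 284 lower genes and 7 such lists, and uncentred CPM without Sftpc and mitochondrial UMIs gave 537 higher genes and 9 lists. A 1.5-fold limit gave 901 and 1079, and a 3-fold limit 112 and 145. Leaving out genes at or below the lymphocyte level, chosen after seeing the data, gave 192 and 289. Where it was not the number of genes or cells, the cause of these changes was not tested. Of the named genes 140 of 146 kept their direction in each of the settings that gave them a value, the lymphocyte subtraction not among them. In the 28-cell setting Krt19 and Sfn were at 0 by that rule, so their log2 value of 5.12 came from the added 0.5 counts alone. Bok, Pde1c, Rgs4, St8sia6 and Tubb2b had the same value, and the direction of these genes in that setting carries no information. A second random thinning gave 346 and 464, of which 256 and 365 genes were shared with the main one. Below about 20 CPM a gene rests on few null PNX UMIs, and no setting replaces a second library.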
